A study of Mus musculus with 6 samples.

Results

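The 4 mouse HtrA serine protease genes, Htra1, Htra2, Htra3 and Htra4, were followed in dermal fibroblasts, out of 22180 named genes on the array. All 4 were measured, each by 1 probe set assigned to that gene alone. The family was picked because Htra4 had the largest rise of any gene in the transgenic fibroblasts. The differences of its members between the groups are therefore given as a description, and no conclusion is drawn from testing them. The cells were dermal fibroblasts of female mice aged 8 to 12 weeks, taken from ventral skin, with 3 samples and 1 array per sample in each of 2 groups. The KrP group came from K14-PTHrP mice, which make parathyroid hormone-related protein (PTHrP) from a transgene under the keratin 14 promoter and whose skin is described as nipple-like. The WT group came from wild-type littermates, in the telogen (resting) phase of the hair cycle, and both groups were on a C57BL/6 background. The free-text descriptions of KrP 2 and KrP 3 name a keratin other than K14, and the genotype and source name, which give K14, were followed. Keratin 14 is a gene of basal keratinocytes, so the cells measured are neighbours of those in which the transgene is driven. In both groups digests were pooled, and viable CD140-positive cells were sorted after exclusion of cells bearing CD31 (endothelial), CD45 (leukocyte), CD117 (melanocyte and mast cell) or CD49f (epithelial). The labels name 3 mice as a source without saying whether that was per sample or per genotype, so p-values here reflect the spread between samples that may be technical replicates.

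HtrA proteases are relatives of the bacterial heat-shock protease DegP. Each joins a trypsin-like serine protease domain to a PDZ domain, a module that binds the ends of other proteins. HtrA1, HtrA3 and HtrA4 are secreted and carry in front of the protease an IGFBP-type and a Kazal-type domain, names that come from the insulin-like growth factor binding proteins and from a class of protease inhibitors. HtrA1 and HtrA3 cut matrix proteins and proteoglycans, and both have been linked to restraint of TGF-beta family signalling. HtrA3 was first described as a serine protease of pregnancy, and HtrA4 is best known from the placenta. HtrA2, also called Omi, lies between the mitochondrial membranes, where it takes part in protein quality control, and on release into the cytosol it binds inhibitor of apoptosis (IAP) proteins.

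Values are log2 expression per probe set, so a step of 1 is a doubling. The 6 array medians lay between 6.34 and 6.43. Correlations over all probe sets were 0.986 to 0.994 within groups and 0.975 to 0.989 across groups. KrP 2 correlated by 0.992 with KrP 3, by 0.989 with each WT array and by 0.986 with KrP 1. KrP 1 correlated by 0.992 with KrP 3 and by 0.975 to 0.986 with the WT arrays. Within their group the correlations thus do not set KrP 2 apart from KrP 1, and KrP 2 is the KrP array closest to WT. Member differences are given with and without KrP 2. As a guide to background, 1089 olfactory receptor genes had a median of 4.04 and a 95th percentile of 6.27. Fibroblast markers were high, with Pdgfra, the CD140a gene, at 13.23 ± 0.10 in the WT group and 13.47 ± 0.06 in the KrP group (mean ± SD, n = 3 each), and Pdgfrb, the CD140b gene, at 12.33 ± 0.43 and 12.76 ± 0.36. Of the excluded surface markers, Ptprc (CD45) and Kit (CD117) lay below that percentile, Pecam1 (CD31) lay at 6.73 ± 0.35 and 6.68 ± 0.09, and Itga6 (CD49f) at 7.41 ± 0.43 and 7.55 ± 0.92. Summed over 8 fibroblast markers, linear signal ran from 36902 to 43693 in WT and from 43892 to 54573 in KrP samples, and over 8 pericyte and smooth muscle markers from 1778 to 2353 and from 2481 to 6125. It ran from 642 to 1055 and from 666 to 705 over 8 keratinocyte markers, of which Krt15, Krt1, Epcam and Trp63 lay below the percentile. The endothelial sums were 1362 to 1674 and 1502 to 1764 over 8 markers, and the leukocyte sums 899 to 1229 and 1026 to 1214 over 7. The melanocyte and Schwann sums were 405 to 529 and 399 to 456 over 6 markers, the adipocyte sums 498 to 623 and 326 to 878 over 5, and the mammary epithelial sums 519 to 824 and 510 to 539 over 7. A gene is said to have passed, risen or fallen where limma, a linear model fitted to all genes, gave a Benjamini-Hochberg adjusted p under 0.05, and the block is the same fit with the replicate number as a further term. By limma 0 of the 8 fibroblast markers passed (5 at an unadjusted p under 0.05, and 3 rose with the block, namely Pdgfrb, Col1a1 and Col1a2). Of the 8 endothelial markers 1 rose (Flt1) and 2 fell (Tek and Cldn5), and with the block Kdr fell as well. Of the 7 leukocyte markers 1 rose (Csf1r). Of the 8 pericyte and smooth muscle markers 1 fell (Cspg4), and with the block Acta2 rose as well, with a difference of 1.31. Of the lists for keratinocytes, melanocytes and Schwann cells, adipocytes and mammary epithelium 0 markers passed, also with the block (1 keratinocyte and 1 melanocyte or Schwann marker were lower at an unadjusted p under 0.05). Of all genes, limma called 1.15% higher and 1.03% lower, and 5.33% and 3.02% with the block. The part of other cells in the results was not tested. In such bulk samples, fewer cells of a type and less RNA per cell cannot be told apart.

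Htra4, a secreted member, had log2 values of 7.32, 8.42 and 8.10 in WT samples 1 to 3 and of 11.78, 10.82 and 11.56 in KrP samples 1 to 3. Every KrP value lay above every WT value, with 2.40 log2 units between the lowest KrP and the highest WT value. The group means were 7.95 ± 0.57 and 11.39 ± 0.50 (SD, n = 3 each), a difference of 3.44 ± 0.32 (SE) or 10.9-fold. Among all genes, the next largest upward differences were those of Akr1c18, which encodes a progesterone-reducing enzyme (3.09 ± 0.73, which did not pass limma), P4ha3, a subunit of collagen prolyl hydroxylase (3.02 ± 0.19), and Moxd1, a copper-dependent monooxygenase (2.99 ± 0.42). Only 3 genes differed by more than 3 log2 units upward. The separation of Htra4 between groups was the second widest upward gap on the array, after 2.42 for P4ha3. Htra4 was above the olfactory receptor percentile in all 6 samples.

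The spread of Htra4 was wide within both genotypes, at 1.10 log2 units in WT and 0.96 in KrP samples. WT 2 was the highest of its group and KrP 2 the lowest of its own, so the difference between samples of the same number was 4.46 for number 1, 2.40 for number 2 and 3.46 for number 3. Without KrP 2 the difference was 3.72 ± 0.29 (SE), or 13.2-fold. Over the 15 alternative fits it lay between 3.13 and 3.72.

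Htra1, the secreted member with the best known matrix and growth factor substrates, was also higher in KrP fibroblasts. Its log2 values were 10.21, 10.90 and 10.82 in WT samples 1 to 3 and 11.70, 11.59 and 11.73 in KrP samples 1 to 3. The groups did not overlap, and the lowest KrP value stood 0.69 above the highest WT value. The means were 10.64 ± 0.38 and 11.67 ± 0.07 (SD, n = 3 each), a difference of 1.03 ± 0.18 (SE) or 2.04-fold, with 1.01% of all genes showing a larger rise. The KrP samples spanned 0.14 log2 units and the WT samples 0.69, most of it from WT 1, which was the lowest of its group for Htra1, Htra3 and Htra4. The difference was 1.07 ± 0.20 without KrP 2 and lay between 0.81 and 1.16 over the alternatives.

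Htra3, the secreted member first described in pregnancy, showed no separation of the genotypes. It had log2 values of 10.42, 10.86 and 10.71 in WT samples 1 to 3 and of 10.51, 10.87 and 10.74 in KrP samples 1 to 3. The ranges overlapped almost fully, and each KrP value lay close to the WT value of the same number, with differences of 0.09, 0.01 and 0.03. The means were 10.66 ± 0.22 and 10.71 ± 0.18 (SD, n = 3 each), and the difference was 0.04 ± 0.15 (SE) with a 95% interval from -0.30 to 0.38. Without KrP 2 it was -0.04 ± 0.16, and over the alternatives it ran from -0.08 to 0.14.

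Htra2, the mitochondrial member, likewise lay at one level in both groups within its spread. Its values were 11.51, 10.99 and 11.29 in WT samples 1 to 3 and 11.36, 11.25 and 11.29 in KrP samples 1 to 3. All 3 KrP values fell inside the WT range. The means were 11.26 ± 0.26 and 11.30 ± 0.06 (SD, n = 3 each), and the difference was 0.04 ± 0.14 (SE) with a 95% interval from -0.27 to 0.35. Without KrP 2 it was 0.06 ± 0.15, and over the alternatives it ran from -0.10 to 0.16. Unlike for the 3 secreted members, WT 1 was the highest and WT 2 the lowest WT sample for Htra2. The gene model of Htra2 overlaps those of Loxl3 and Aup1 in the RefSeq table, and how far its probes share signal with them is not given in the sources used here.

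**Figure D1:**
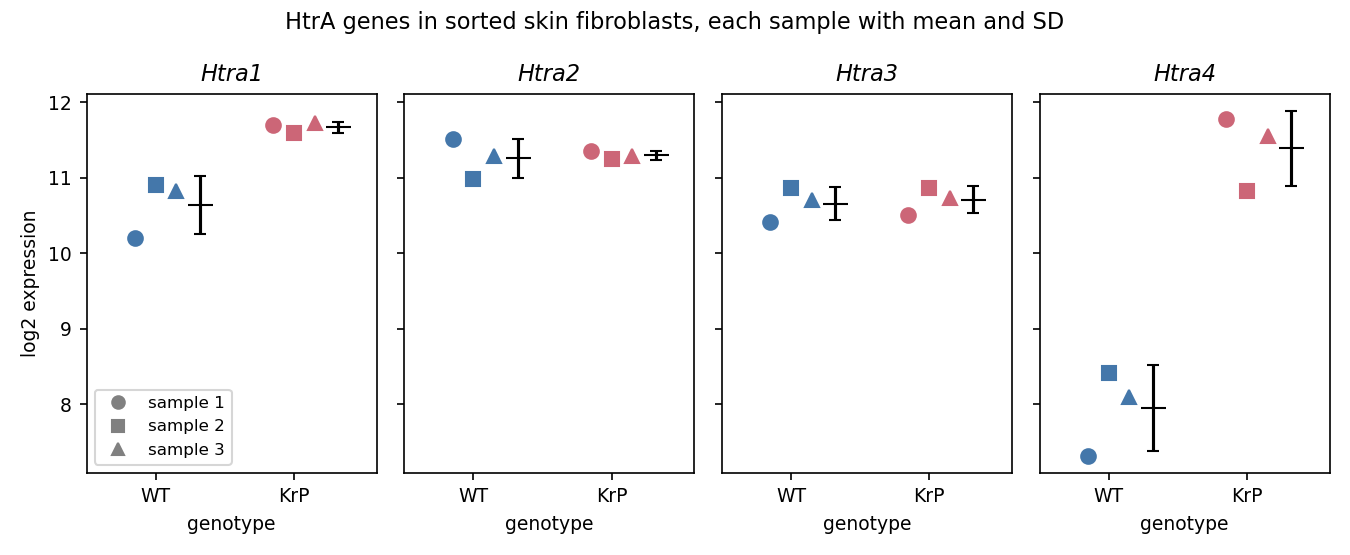
Log2 expression of Htra1, Htra2, Htra3 and Htra4 in each WT and KrP sample. Symbols mark the sample number, and the bar beside each group gives its mean and SD (n = 3). The Htra4 points span 7.32 to 8.42 in WT and 10.82 to 11.78 in KrP samples, whereas the Htra2 and Htra3 points overlap.

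By limma 2 of the 4 members passed as higher in KrP samples (Htra4 and Htra1) and 0 as lower, where 2.18% of all genes passed, 1.15% as higher and 1.03% as lower. In the fit that blocked on the replicate number, the same 2 passed, where 8.35% of all genes did. Htra4 passed in all 15 alternative fits, which reuse the samples that the family was chosen on. Htra1 passed in 12 of them and not without WT 3, without KrP 1 or without KrP 3. Since the family was chosen on this contrast, nothing is read from these counts or from the alternative fits. Groups that did not overlap, with the KrP values above, were found for the same 2 members and for 11.4% of all genes, and with the KrP values below for 0 members and 8.93% of all genes.

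**Figure D2:**
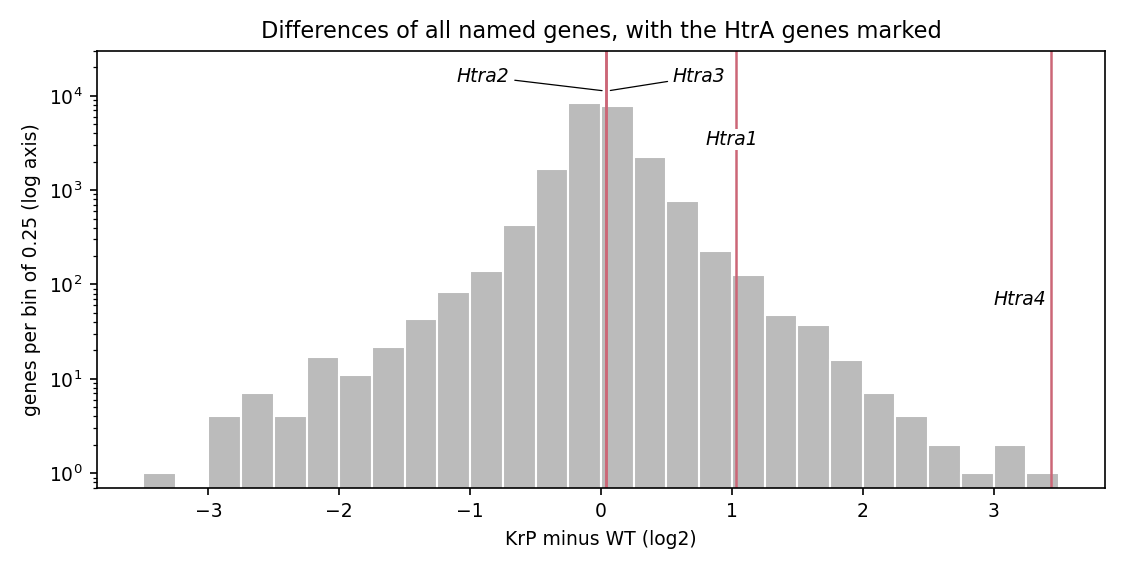
Histogram of the KrP minus WT difference (log2) of 22180 named genes in bins of 0.25, on a logarithmic count axis. Vertical lines mark the HtrA genes, with Htra4 at 3.44 in the uppermost bin, Htra1 at 1.03, and Htra2 and Htra3 at 0.04 near the centre.

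RefSeq promoters, on the mouse build GRCm38.p6, were at hand for Htra1 and Htra3, a member that was higher in KrP fibroblasts and one that was not. The 250 bases before each transcription start are shown 5′ to 3′, for Htra1 at chr7:130935953-130936202 on the plus strand and for Htra3 at chr5:35679781-35680030 on the minus strand. Capitals mark matches to the motifs searched on both strands, which were the cAMP response element TGACGTCA, its core TGACG, the AP-1 site TGANTCA, the GC box GGGCGG, the CCAAT box CCAAT and the TATA box TATAAA. The core is contained in the full element. Cyclic AMP is a main messenger of the PTHrP receptor, which is why its response element was included.
Htra1: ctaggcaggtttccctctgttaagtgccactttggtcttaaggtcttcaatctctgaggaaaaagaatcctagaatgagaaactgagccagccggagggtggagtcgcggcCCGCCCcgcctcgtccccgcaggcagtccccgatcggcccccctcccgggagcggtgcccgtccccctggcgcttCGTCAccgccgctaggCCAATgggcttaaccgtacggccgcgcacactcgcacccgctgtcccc
Htra3: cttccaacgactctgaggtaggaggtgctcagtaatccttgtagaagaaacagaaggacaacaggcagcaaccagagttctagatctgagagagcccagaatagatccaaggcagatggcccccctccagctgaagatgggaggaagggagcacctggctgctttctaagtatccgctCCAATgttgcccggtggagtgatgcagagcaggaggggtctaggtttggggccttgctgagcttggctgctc
The Htra1 window held 1 core read as CGTCA, 64 to 60 bases before the start, beside 1 GC box and 1 CCAAT box. The Htra3 window held 1 CCAAT box, 72 to 68 bases before the start. Neither held the full response element, an AP-1 site or a TATA box. Of 32851 RefSeq promoter windows of this length, 1.55% held the full element, 17.8% the core, 6.75% the AP-1 site, 32.7% the GC box, 33.8% the CCAAT box and 12.4% the TATA box. The G and C content was 64.8% for Htra1, above 82.3% of these windows, and 54.8% for Htra3, above 57.8%. These matches describe letters and not bound factors.

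Genes of extracellular proteins reported as substrates of HtrA1 or HtrA3 had differences in both directions. Whether they moved as a group was not tested. These are RNA levels, and cleavage of the proteins was not measured. Of 14 measured, 0 rose, 1 fell and 13 did not pass limma (4 were higher and 4 lower at an unadjusted p under 0.05), with a median difference of -0.04 where that of all genes was 0.01. By limma 1.15% of all genes rose and 1.03% fell. With the replicate block 4 rose and 4 fell, where 5.33% of all genes rose and 3.02% fell. The member that fell was Tgfb1, the gene of the growth factor TGF-beta 1. Its log2 values were 11.63, 12.05 and 11.68 in WT samples and 10.41, 10.94 and 10.74 in KrP samples, so all KrP values were lower. It was 2.13-fold lower in KrP samples (difference -1.09 ± 0.16 SE, adjusted p = 0.0175). Over the 15 alternatives its adjusted p ran from 0.000205 to 0.104, and the call ended without WT 2, without WT 3 and without KrP 3.

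The other substrates differed in both directions. Ltbp1, which anchors latent TGF-beta in the matrix, had 9.76, 10.37 and 10.49 in WT samples and 10.96, 11.19 and 11.16 in KrP samples, a difference of 0.90 ± 0.19 (SE) that passed with the block and not without it (adjusted p = 0.0582). Its groups did not overlap. Igfbp5, a binding protein of insulin-like growth factors, had a difference of 0.68 ± 0.22, fibronectin (Fn1) of 0.46 ± 0.14 and the proteoglycan biglycan (Bgn) of 0.29 ± 0.06, and these passed with the block and not without it. On the lower side, the same held for the fibulins Efemp1 (-1.19 ± 0.25) and Fbln5 (-0.66 ± 0.15), which belong to elastic fibres and basement membranes, and for the collagen-binding proteoglycan fibromodulin (Fmod, -1.03 ± 0.27). Efemp1 had 11.38, 12.21 and 12.24 in WT samples and 10.36, 10.95 and 10.94 in KrP samples, without overlap. Decorin (Dcn) stood at 13.82 ± 0.06 and 13.84 ± 0.03 (SD, n = 3 each), near the top of the scale of these arrays. Thbs1, Adam9, Clu, Vtn and Acan had differences of -0.19, 0.43, -0.11, 0.25 and -0.13 and did not pass in either fit. The mean of Acan lay below the olfactory receptor percentile.

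Genes that share the IGFBP-type domain with the secreted HtrA proteases went both ways. Among the 17 measured, 1 rose and 2 fell, the block gave 3 and 3, and the median difference was -0.02. The shares over all genes were 1.15% higher and 1.03% lower, and the block made them 5.33% and 3.02%. Igfbp6, which binds IGF-II by preference, had 10.03, 10.56 and 10.68 in WT and 11.84, 11.30 and 12.06 in KrP samples and rose 2.48-fold (adjusted p = 0.0304 by limma). Igfbp2 had 9.78, 9.93 and 10.32 in WT and 7.64, 8.73 and 8.12 in KrP samples and was 3.60-fold lower (adjusted p = 0.0161). KrP 2 was the sample nearest to the WT range for both genes. The matricellular gene Ccn3 was 1.79-fold lower (adjusted p = 0.0477). Over the alternatives the adjusted p of Igfbp6 ran from 0.000434 to 0.152, failing without each sample but KrP 2, that of Igfbp2 reached 0.104, failing without WT 2, WT 3 or KrP 3, and that of Ccn3 reached 0.240, failing without each sample but KrP 2, with median centring and with quantile normalisation. Igfbp4, with a difference of 1.28 ± 0.29, and Igfbp5 were higher and Esm1 lower (-0.68 ± 0.20) with the block and did not pass without it. Of the remaining members, Igfbp3, Igfbp7, Ccn1, Ccn2, Ccn4, Ccn5, Crim1, Kazald1 and Igfbpl1 passed in neither fit, nor did Igfbp1 and Ccn6, which lay below the olfactory receptor percentile. Ccn2 varied most, at 11.13 ± 0.79 in WT and 10.82 ± 2.05 in KrP fibroblasts (SD, n = 3 each).

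Among 19 genes with Kazal or follistatin-type domains, 1 rose and 0 fell by limma, with a median difference of 0.04. At an unadjusted p under 0.05, 3 were higher and 3 lower, and with the block 2 rose and 1 fell. The shares over all genes were 1.15% higher and 1.03% lower by limma, and 5.33% and 3.02% with the block. The means of 5 of the 19 lay at or below the olfactory receptor percentile. The riser was Smoc2, a matricellular relative of SPARC, with 10.09, 10.20 and 10.16 in WT and 12.07, 11.55 and 11.73 in KrP samples. It was 3.10-fold higher (adjusted p = 0.00228 by limma), and every alternative kept the call. Of 8 IGF ligands, receptors and IGFBP proteases 1 rose and 1 fell (2 and 1 with the block; median 0.01). The means of 2 of these 8 lay at or below the olfactory receptor percentile. Igf1 had 7.60, 7.91 and 8.45 in WT and 9.71, 9.63 and 9.86 in KrP samples and was 3.36-fold higher (adjusted p = 0.00708, from 0.000297 to 0.0604 over the alternatives, the last without KrP 3). The clearing receptor Igf2r was 1.62-fold lower (adjusted p = 0.0453), with an adjusted p of up to 0.240 over the alternatives. It failed without WT 1, WT 2, WT 3, KrP 2 or KrP 3 and with median centring. The IGFBP protease genes Pappa, Pappa2 and Adam12 had differences of 0.05, -0.04 and 0.44 and did not pass in either fit.

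Other secreted or surface serine proteases gave few calls by limma, as did all genes. Of 22 measured, 1 rose and 0 fell by limma (4 higher and 4 lower at an unadjusted p under 0.05; 2 and 3 with the block), with a median difference of 0.01. The 1 call is 4.55% of the list, where limma called 2.18% of all genes. With the block 5.33% of all genes rose and 3.02% fell. Pcsk6, a proprotein convertase that activates precursors outside the cell, had 7.70, 7.87 and 8.26 in WT and 9.01, 9.06 and 9.42 in KrP samples and rose 2.33-fold (adjusted p = 0.0171 by limma). Its adjusted p ran from 0.000443 to 0.110 over the alternatives and missed the threshold without WT 1, WT 2 or KrP 3. With the block, the plasminogen activator Plat also rose (1.34 ± 0.37 SE), and the urokinase gene Plau (-1.53 ± 0.46), the dipeptidyl peptidase gene Dpp4 (-1.53 ± 0.39, with a KrP mean of 6.16, below the olfactory receptor percentile) and Prss23 (-0.62 ± 0.17) fell. Plau had 12.10, 12.30 and 11.82 in WT and 9.46, 11.65 and 10.51 in KrP samples, again with KrP 2 nearest to the WT range. Fap, a serine protease that marks activated fibroblasts, stood at 6.34 ± 0.18 and 6.34 ± 0.23 (SD, n = 3 each), close to background.

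Inhibitors of serine proteases were mostly higher where they passed. Of 16 measured, 4 rose and 1 fell, with the same counts under the block, and the median difference was 0.23. These 5 are 31.2% of the list, where limma called 1.15% of all genes higher and 1.03% lower (5.33% and 3.02% with the block). Leaving out 1 sample gave 1 call without WT 3 or without KrP 3, 2 without WT 1 or KrP 1, 3 without WT 2 and 6 without KrP 2. Slpi, a secreted inhibitor of leukocyte proteases, had 11.09, 11.31 and 10.90 in WT and 12.23, 12.25 and 12.14 in KrP samples and rose 2.15-fold (adjusted p = 0.00431 by limma), under every alternative. The granzyme inhibitor Serpinb9 rose 1.99-fold (adjusted p = 0.0298), the broad inhibitor A2m 1.71-fold (0.0454; its WT mean, 6.27, was no higher than the olfactory receptor percentile) and Serpinf1, which encodes pigment epithelium-derived factor, 1.46-fold (0.0456). Over the alternatives their adjusted p reached 0.168, 0.223 and 0.258. Serpinb9 failed without WT 1, WT 3, KrP 1 or KrP 3, A2m and Serpinf1 failed without each sample but KrP 2, and Serpinb9 and Serpinf1 also failed with quantile normalisation. Tfpi2, a matrix-bound Kunitz inhibitor, had 11.59, 12.56 and 11.79 in WT and 9.25, 10.28 and 10.06 in KrP samples and was 4.34-fold lower (adjusted p = 0.0168, up to 0.0814 over the alternatives, failing without WT 3 or KrP 3). That protease and inhibitor lists differed in their share of calls was not tested.

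TGF-beta family ligands and genes of SMAD feedback, which the secreted HtrA proteases are thought to restrain, held 0 that rose and 1 that fell by limma among 16 measured (4 higher and 4 lower at an unadjusted p under 0.05), with a median difference of -0.12. The call was Tgfb1. Limma called 1.15% of all genes higher and 1.03% lower, and 5.33% and 3.02% with the block. With the block 2 rose and 4 fell, which added Bmp7 (0.61 ± 0.16 SE) and the BMP target Id1 (0.87 ± 0.26) on the higher side. On the lower side it added the inhibitory Smad7 (-0.51 ± 0.14), the SMAD repressor Skil (-0.62 ± 0.16) and the TGF-beta-induced matrix gene Tgfbi (-1.15 ± 0.36). Tgfb2 and Tgfb3 had differences of -0.24 ± 0.16 and 0.03 ± 0.24 and did not pass in either fit.

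Genes around the mitochondrial member Htra2 gave 0 calls by limma, which called 2.18% of all genes, and 8.35% with the block. Among 15 mitochondrial proteases 0 rose and 0 fell by limma, also with the block and at an unadjusted p under 0.05, and the differences ran from -0.34 for Mipep to 0.32 for Oma1 around a median of 0.05. Of 10 IAP genes and their antagonists 0 passed, and Birc3 (-0.61 ± 0.13 SE) was the 1 gene lower at an unadjusted p under 0.05 and with the block. Xiap, the IAP that Htra2 is best known to bind, differed by 0.01 ± 0.14, and Diablo, the other mitochondrial antagonist of IAPs, by -0.01 ± 0.12. Among 9 genes of the mitochondrial unfolded protein response 0 passed in either fit (1 was lower at an unadjusted p under 0.05, Hspa9 at -0.21 ± 0.07), with a median of -0.13.

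**Figure D3:**
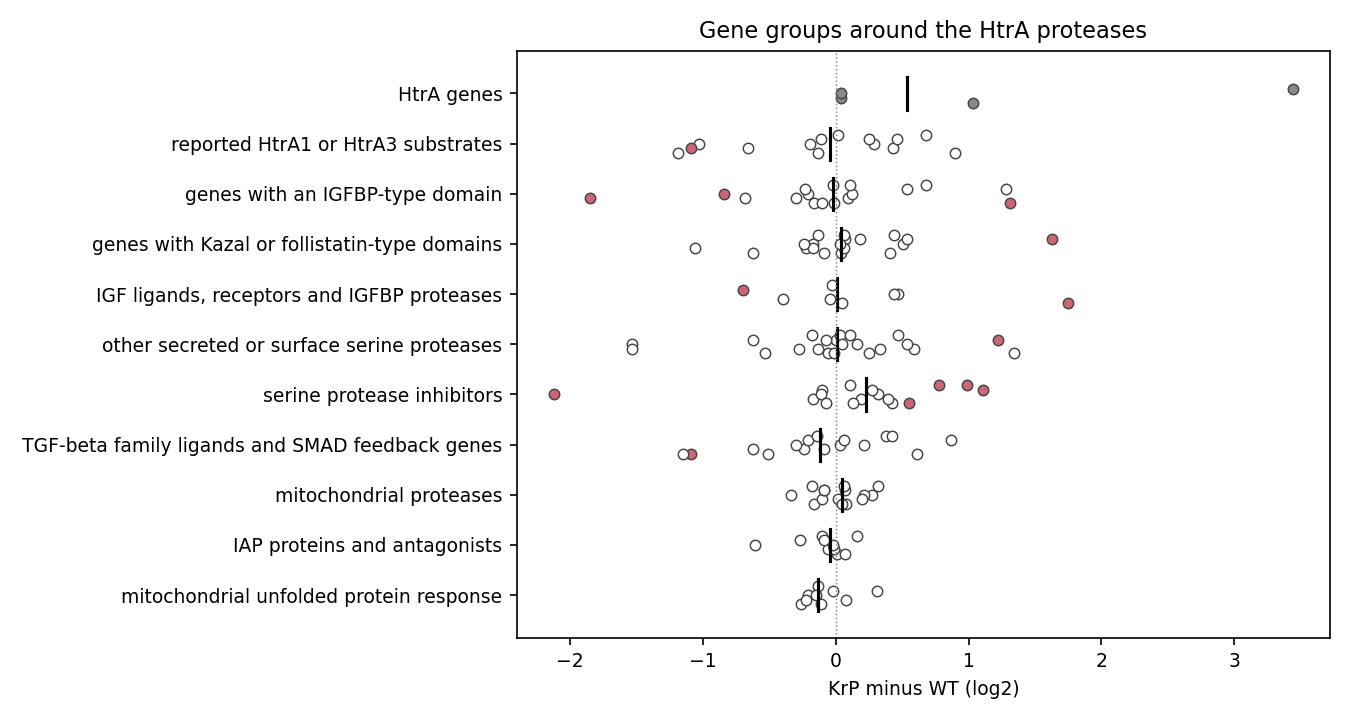
KrP minus WT difference (log2) of each measured gene in 11 groups, 1 point per gene, with a vertical bar at the group's median. Red points passed limma at an adjusted p under 0.05 and white points did not, and the HtrA genes are grey since they were chosen on this contrast. The medians lie between -0.13 and 0.23 for the groups other than the HtrA genes.

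The genes most like each member over the 6 samples were found by the root mean square difference between log2 profiles, each centred on its own mean, among 18725 genes. The 5 nearest to Htra4 were P4ha3 at 0.37 log2 units, Moxd1 at 0.38, the urea transporter Slc14a1 at 0.52, the chemokine Cxcl14 at 0.70 and the secreted Wnt inhibitor Sfrp1 at 0.73. These differed between genotypes by 3.02, 2.99, 2.63, 2.27 and 2.30. The profiles were centred and not scaled, so nearness to Htra4 depends much on the size of the rise. The family was chosen on that rise, and P4ha3 and Moxd1 are also named above as next in order of rise. This order is therefore no finding apart from the rise itself. P4ha3, Moxd1, Slc14a1 and Sfrp1 shared with Htra4 a KrP 2 value below those of KrP 1 and KrP 3, and Cxcl14 did not. Htra1 stood at place 139 in this order, at 1.24.

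The 5 nearest to Htra1 were Ecm1, Lzts2 and Ltbp1 at 0.13 and Rtn2 and Hspg2 at 0.14. Ecm1 and Hspg2 encode the matrix proteins extracellular matrix protein 1 and perlecan, and Ltbp1 is a reported HtrA1 substrate. In all 5 genes WT 1 was the lowest sample, as for Htra1. They were picked for a profile like that of Htra1, so this is no separate finding. For Htra3 the nearest were Neurod6, Apol7d, Ildr1 and Lrrc8a at 0.03 and Ciita at 0.04, of which Neurod6, Apol7d and Ildr1 had group means below the olfactory receptor percentile. For Htra2 they were Lrp8 and Peg13 at 0.02 and Tpcn1 at 0.03. Between genotypes, the mean levels of 20.2% of all genes differed by less than 0.05, as did those of Htra2 and Htra3.

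**Figure D4:**
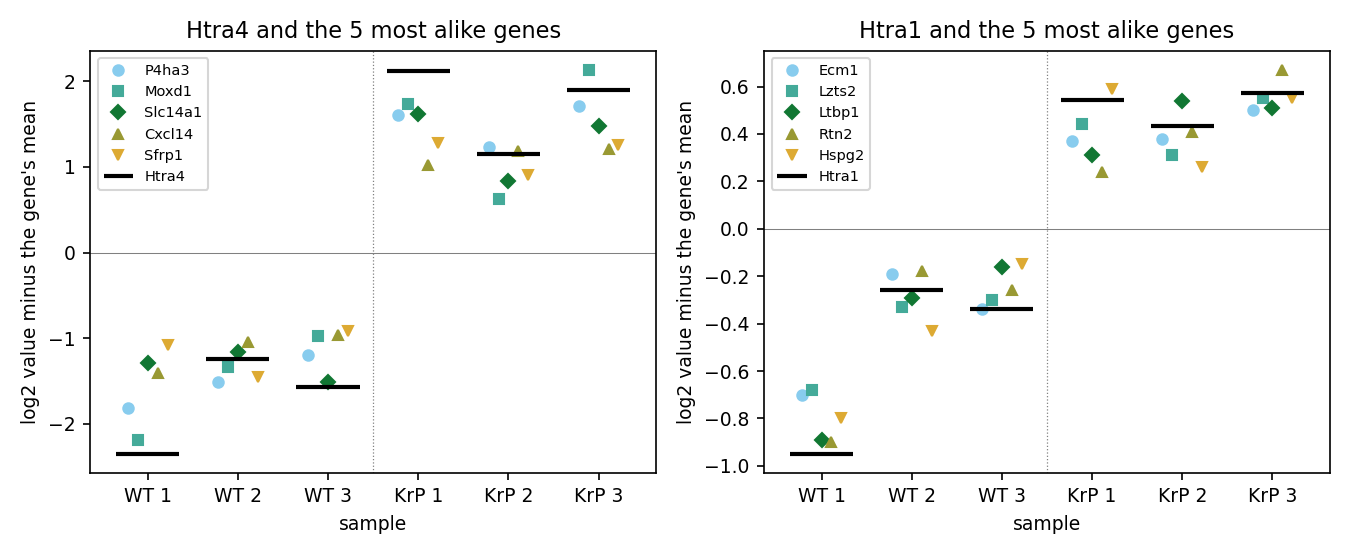
Log2 values of Htra4 (left) and Htra1 (right), drawn as black bars, with the 5 most alike genes as symbols, in each sample and relative to each gene's mean over the 6 samples. WT 1 is the lowest sample of Htra4 at -2.35 and of Htra1 at -0.95, and KrP 2 is the lowest KrP sample of Htra4 at 1.15.

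The order of genes in the RefSeq table was used to ask whether the genes beside each member differed too, taking 3 measured genes on each side. This choice was made after the values of the members had been seen. Of the 24 neighbours 1 passed limma and 3 passed with the block, shares to be read against 2.18% and 8.35% of all genes. Beside Htra4, the gene Tacc1, which encodes a microtubule-binding protein and lies second to Htra4 on one side, had 9.82, 9.33 and 9.75 in WT and 11.44, 10.72 and 10.97 in KrP samples. It rose 2.66-fold (difference 1.41 ± 0.21 SE, adjusted p = 0.0160 by limma), with an adjusted p from 0.000161 to 0.0944 over the alternatives, failing without WT 3 or KrP 3. The immediate neighbours Plekha2 and Tm2d2 had differences of 0.34 ± 0.13 and 0.44 ± 0.18, and Adam9 of 0.43 ± 0.24, and these 3 passed in neither fit. Adam32 had -0.04 ± 0.12.

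Beside Htra1, the 6 neighbours had differences from -0.14 to 0.17 and none passed in either fit. Plekha1, the nearest of these above background, had 0.03 ± 0.13. Beside the Htra3 gene, the carboxypeptidase gene Cpz had a difference of 0.92 ± 0.24, and beside Htra2 the lysyl oxidase gene Loxl3 had 0.92 ± 0.24, both passing with the block and not without it. Loxl3 overlaps Htra2 in the gene models, and its values were 7.51, 7.59 and 7.95 in WT and 8.98, 8.06 and 8.76 in KrP samples, without overlap between groups, while those of Htra2 overlapped. Aup1, which also overlaps Htra2, differed by 0.06 ± 0.08.

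**Figure D5:**
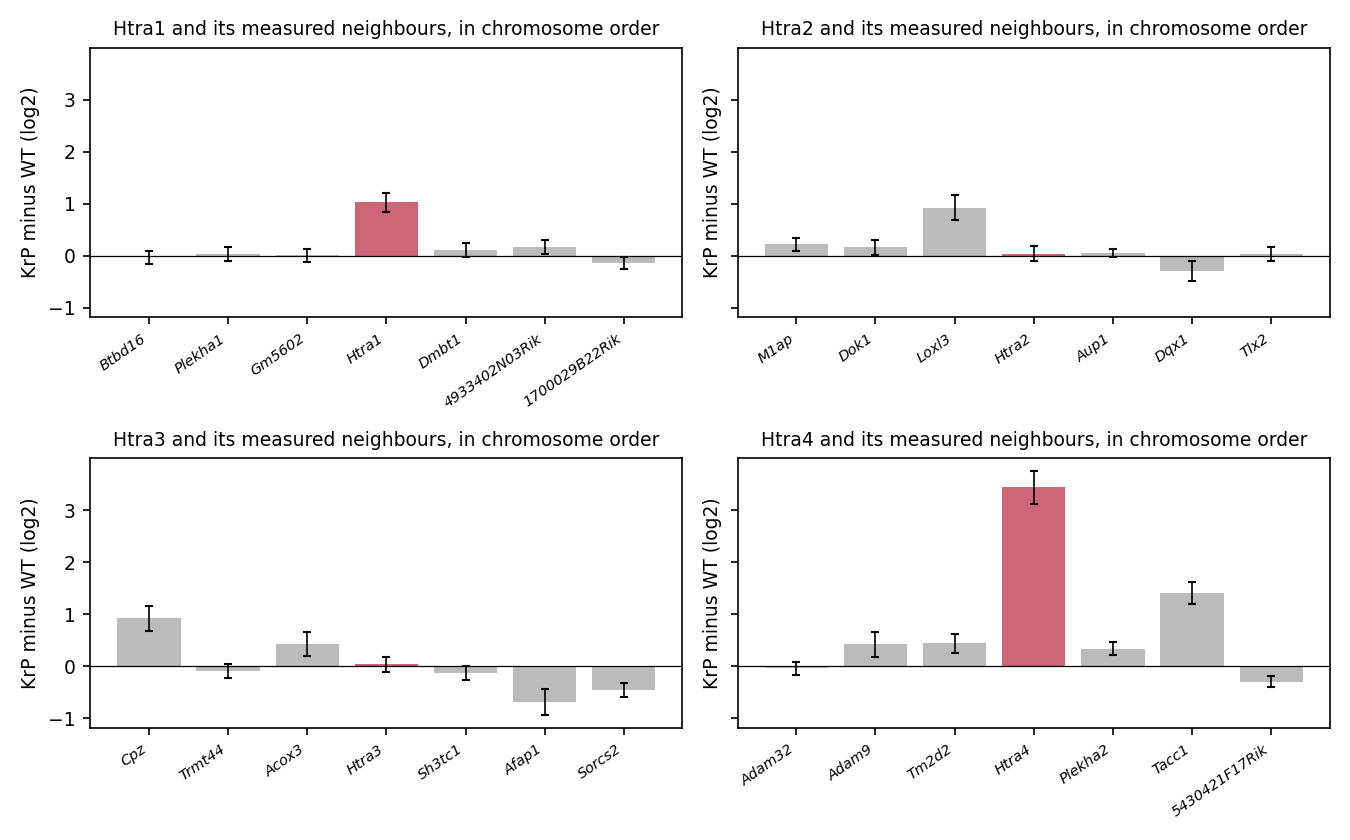
KrP minus WT difference (log2) with its SE for each HtrA gene (red) and 3 measured neighbours on each side (grey), in chromosome order and not to distance. Next to Htra4 at 3.44 ± 0.32, Tacc1 is the tallest neighbour at 1.41 ± 0.21, and the neighbours of Htra1 lie between -0.14 and 0.17.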

How the data were processed

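RNA from 6 sorted samples, 100 ng each, was labelled with biotin, per the labels' protocols. The deposited table holds log2 values made by the authors, from 1.72 to 14.32, 1 column per sample. The submitters' processing notes name RMA and Partek. Versions, genome build and filters were not given in the sources used here. Arrays hold no depth, and their number limits the precision.

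Of 34390 probe sets, 23521 had 1 gene symbol in the platform annotation, 1814 several and 9055 none. Of those with 1 symbol, 23328 were matched by gene ID to RefSeq (GRCm38.p6), whose symbol was then used. RefSeq also gave gene order. For 1082 genes with several probe sets the brightest was taken. The fit used limma 3.58.1 (R 4.3.3, lmFit, eBayes with trend, genotype only) and was tested on simulated data. Figures used matplotlib 3.10.9.

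The members and the 10 gene lists were chosen with earlier results of these data known. The text names the members, called list genes (3 at most a direction), reported substrates, IGFBP-domain genes, sort genes, the 3 genes next to Htra4 in order of difference and the most alike genes. Other genes, such as Serpinf1, the neighbours and those passing with the block and not without it, were named after their values were seen.

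Deviations from group means correlated by 0.414, 0.350 and 0.120 between same-numbered samples and by -0.385 to 0.067 otherwise. All 3 exceeded 0.1, and on these values alone the replicate block was added as an alternative, given where it changes a count. Deviations within a group cancel out, so these correlations are not independent and cannot establish a pairing. No label states that the numbers mark one. Calls made only with the block therefore rest on a pairing that was assumed. Other alternatives were no trend, a robust prior, array weights, leaving out the lower 25% or 50% of genes, quantile normalisation, median centring, averaged probe sets and leaving out each sample.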

Additional observations from a re-analysis of the deposited data

How the results depend on the processing

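The differences of the 4 members moved by less than 1 SD between replicates under all 15 alternatives. The count of all called genes was 483. It was 1851 with the replicate block and 6410 with array weights, and between 85 (without KrP 3) and 1116 (without KrP 2) when 1 sample was left out. Of the 143 genes in the lists, each counted once, 13 were called, or 9.09%, where 2.18% of all genes were. The lists were chosen with earlier results of these data known, so nothing is read from this share. With the replicate block 35 were called, where 8.35% of all genes were, and with array weights 64. With 1 sample left out the count lay between 2 (without KrP 3) and 31 (without KrP 2). The cause of these shifts was not tested. Of 27 called genes outside the family that were examined singly, 0 changed direction under any alternative. The calls of 6 held in all of them, namely P4ha3, Smoc2, Slpi, Slc14a1, Cxcl14 and Sfrp1. The replicate block ended 0 of the 27 calls, quantile normalisation 6 and median centring 2. Leaving out 1 sample ended 21 without KrP 3, 18 without WT 3, 13 each without WT 1 and WT 2, 9 without KrP 1 and 2 without KrP 2. With 3 arrays per group, probe sets near background give compressed differences.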
